A study of Mus musculus with 58 samples.

Results

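The genes described here are 35 that move sugar into, through and out of the skeletal muscle fibre: transporters of glucose and lactate, glycolytic enzymes, lactate dehydrogenases, the glycerol phosphate shuttle, and the enzymes that build and break down glycogen. They were chosen by gene symbol, and 32 of the 35 had at least 1 probe set annotated to that symbol alone, in all 66 of 45037 probe sets. Eno1, Gapdh and Gpi1 were not analysed here. A probe set is the group of oligonucleotides that measures a transcript on an Affymetrix array, and 17 of the 32 genes had more than 1. For such a gene the brightest over the 3 experiments, its lead probe set, stands for the gene, and the other probe sets are given where they differ.

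The study profiled quadriceps muscle of 34 male mice on 58 arrays in 3 experiments. Experiment 1 held 6 mice of the transgenic line 20b, 6 of the transgenic line 41 and 6 FVB wild-type mice, all 6 months old. Both lines are called CUGexp, lie on the FVB background and express an expanded CUG repeat RNA, in earlier descriptions from a human skeletal actin transgene that is active in skeletal muscle. Experiment 2 held 3 Clcn1-null mice, which lack the muscle chloride channel gene on the BALB background, and 3 BALB wild-type mice, all 3 months old. Experiment 3 held 5 Mbnl1-null mice, which lack a splicing regulator gene on the FVB background, and 5 FVB wild-type mice, all 3 months old. The labels state no treatment beyond these inborn modifications, which every cell of the null mice carries. Each mutant group was compared with the wild-type mice of its own experiment, and line 20b with line 41.

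Glycogen is the sugar store of muscle. Glycogenin starts the particle, glycogen synthase lengthens it from UDP-glucose and the branching enzyme branches it. Glycogen phosphorylase releases glucose phosphate once phosphorylase kinase, an enzyme of catalytic and regulatory subunits, has activated it. Glycolysis then turns glucose phosphate into pyruvate, which lactate dehydrogenase reduces to lactate for export or pyruvate dehydrogenase feeds to the mitochondria. The glycerol phosphate shuttle, a cytosolic and a mitochondrial dehydrogenase working as a pair, carries reducing power from glycolysis to the respiratory chain. Fast muscle fibres are known for strong use of glycogen, glycolysis and this shuttle.

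All values are log2 of the intensity that the authors deposited, and differences are on the same log2 scale. A gene was called higher or lower where limma's test, fitted across all probe sets of an experiment with Benjamini-Hochberg adjustment over all of them, gave an adjusted p under 0.05. Median intensity ran from 398 to 438 on the 430A arrays of experiment 1 and from 30.2 to 34.4 on its 430B arrays. In experiment 2 it ran from 298 to 317 on 430A and from 22.3 to 27.9 on 430B arrays. On the 430 2.0 arrays of experiment 3 it ran from 9.56 to 11.6. The 430B array of Clcn1-null mouse 3 correlated least with its group mates, with a median r of 0.927 against 0.954 and 0.957 for Clcn1-null mice 1 and 2. That array also had the highest median of the 430B arrays of experiment 2, 27.9. Its mean intensity was the lowest of them, 510 against 721 to 759. Clcn1 itself was lower in all 4 mutant groups, by 1.42 in Clcn1-null mice, and Mbnl1 was lower in Mbnl1-null mice by 0.73. Fast fibre markers were bright in all groups, with mean log2 values of 15.33 to 16.23. In Clcn1-null mice that mean was 15.35 to 15.96, wholly below the 16.01 to 16.23 of the BALB wild types, with Actn3 (-1.92, SE 0.32) and Casq1 called lower and Myh2 higher (0.52, SE 0.10) of 12 markers. In line 20b, 3 of 12 were called lower (Myh4, Actn3 and Casq1, by -0.22 to -0.13) and Myh1 higher (0.33, SE 0.05), while 0 of 12 were called in line 41 or Mbnl1-null muscle.

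Marker lists of other cell and fibre types stood apart in some mice and moved with some genotypes. FVB wild-type mice 1 and 2 of experiment 1 had the highest adipocyte marker means of that experiment, 12.89 and 13.14, against 10.89 to 11.44 in the other 4 wild-type mice, 10.33 to 10.68 in line 20b and 10.3 to 11.4 in line 41. The same mice had the lowest slow fibre marker means of that experiment, 11.01 and 8.91, against 12.70 to 13.35 in the other 4. In experiment 2 the adipocyte mean was 12.32 to 12.52 in Clcn1-null mice, against 10.86 to 11.11 in the BALB wild types, with 5 of 5 tested markers called higher, and in line 20b 5 of 5 were called lower. Slow fibre means were 11.14 to 12.34 in Clcn1-null mice, against 12.93 to 13.37 in the BALB wild types, with 6 of 9 markers called lower and 2 higher. In experiment 3 they were 8.28 to 11.19 in Mbnl1-null mice and 11.69 to 12.14 in FVB wild-type mice, with 6 of 9 called lower, and Mbnl1-null mice 1 and 4 were lowest at 8.98 and 8.28. Endothelial marker means were 9.39 to 9.90 in line 20b, 9.39 to 9.99 in line 41 and 10.12 to 10.61 in FVB wild-type mice, with 5 and 3 of 6 markers called lower in line 20b and line 41. Of the macrophage, fibroblast and nerve markers, 0 of 4, 1 of 6 and 2 of 3 tested were called in line 20b, 1 of 4, 0 of 6 and 2 of 3 in line 41, 1 of 5, 0 of 6 and 1 of 3 in Clcn1-null and 1 of 5, 1 of 5 and 0 of 3 in Mbnl1-null muscle. The part of these cell types in the results below was not tested, except where a value without such mice is given. In whole muscle, fewer cells of a type and less RNA per cell cannot be told apart.

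**Figure D1:**
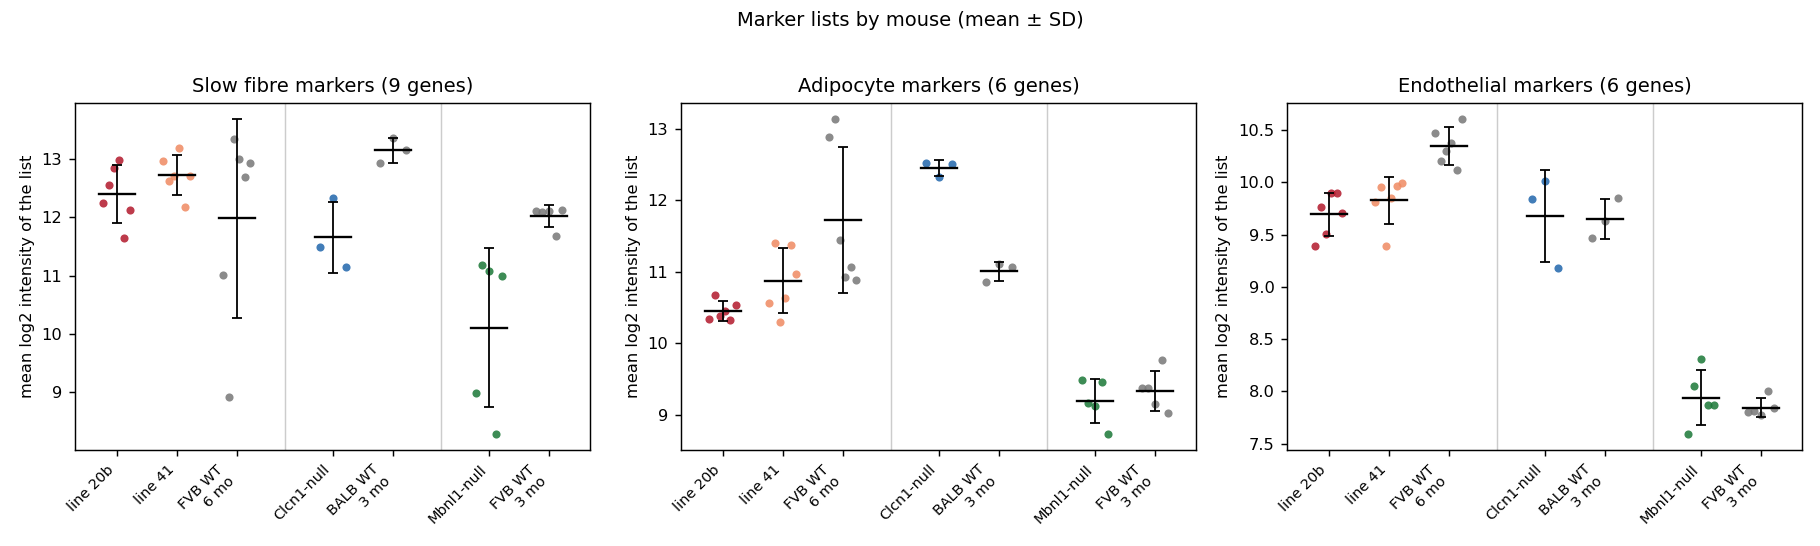
Mean log2 intensity of 9 slow fibre, 6 adipocyte and 6 endothelial marker genes in every mouse, by group, with the 3 experiments separated by grey lines. Points are mice and bars are group means ± SD. FVB wild-type mice 1 and 2 of experiment 1 lie above the other wild-type mice for adipocyte markers and below them for slow fibre markers, and Mbnl1-null mice 1 and 4 are lowest for slow fibre markers in experiment 3.

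In line 20b, 12 of the 30 genes tested were called, 2 higher and 10 lower than in FVB wild-type mice. That is 40% of them, where 18.8% of all genes were called (8.67% higher and 10.1% lower). The mice did not overlap in 8 of the 30 genes, against 10.7% of all genes. In line 41, 4 of 30 were called, 1 higher and 3 lower, which is 13.3% against 8.9% of all genes (3.74% higher and 5.16% lower), and 2 did not overlap (4.35% of all genes). Clcn1-null muscle had 2 higher and 4 lower of 32, which is 18.8% against 4.94% of all genes (2.02% higher and 2.91% lower), and with 3 mice a group 16 did not overlap (31% of all genes). Mbnl1-null muscle had 4 higher and 3 lower of 30, which is 23.3% against 16.1% of all genes (8.01% higher and 8.11% lower), and 8 did not overlap (14.3% of all genes). Of these 4 higher, Gys2 reached the filter limit of log2 5 mainly on Mbnl1-null arrays, so its call is weak evidence. Between the lines, 2 of 30 were higher and 5 lower in line 20b than in line 41, which is 23.3% against 5.75% of all genes (3.46% higher and 2.29% lower), and 5 did not overlap (3.87% of all genes). Counted by probe set, 22 of 60 were called in line 20b (16.8% of all probe sets), 8 of 60 in line 41 (8.47%), 14 of 61 in Clcn1-null (4.32%) and 12 of 57 in Mbnl1-null muscle (16.2%), and 13 of 60 between the lines (5.84%). The median difference of the genes was -0.11 in line 20b, against -0.01 for all genes tested. It was -0.05 for line 41, against -0.02 for all genes. The Clcn1-null median was -0.08, against 0.02, and the Mbnl1-null median -0.10, against -0.01. Line 20b and line 41 are set against the same wild-type mice, so their differences are not independent.

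Leaving out single mice moved these counts most in experiment 2. Without BALB wild-type mouse 1, and likewise without wild-type mouse 3, limma called 0 of the 32 genes, although 13 had an unadjusted p under 0.05 in each case. Without wild-type mouse 2 the count was 3, and without Clcn1-null mouse 3 it was 10, among them all 6 called with every mouse. The share of all genes called moved too. It was 0.24% without wild-type mouse 1, 0.292% without mouse 3 and 1.58% without mouse 2. Without Clcn1-null mouse 3 it was 10.3%, against 4.94% with every mouse. For line 41 the count was 2 without wild-type mouse 6 and 2 without line 41 mouse 4, where 8.07% and 6.82% of all genes were called, against 8.9%. For line 20b against line 41 it was 11 without line 41 mouse 3, where 4.76% of all genes were called, against 5.75%. Without wild-type mice 1 and 2 together, 12 genes were called in line 20b, the same 12, and 5 in line 41, of which 3 were among the 4 called with every mouse. Of all genes, 15.1% and 5.62% were called in line 20b and line 41 without that pair.

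**Figure D2:**
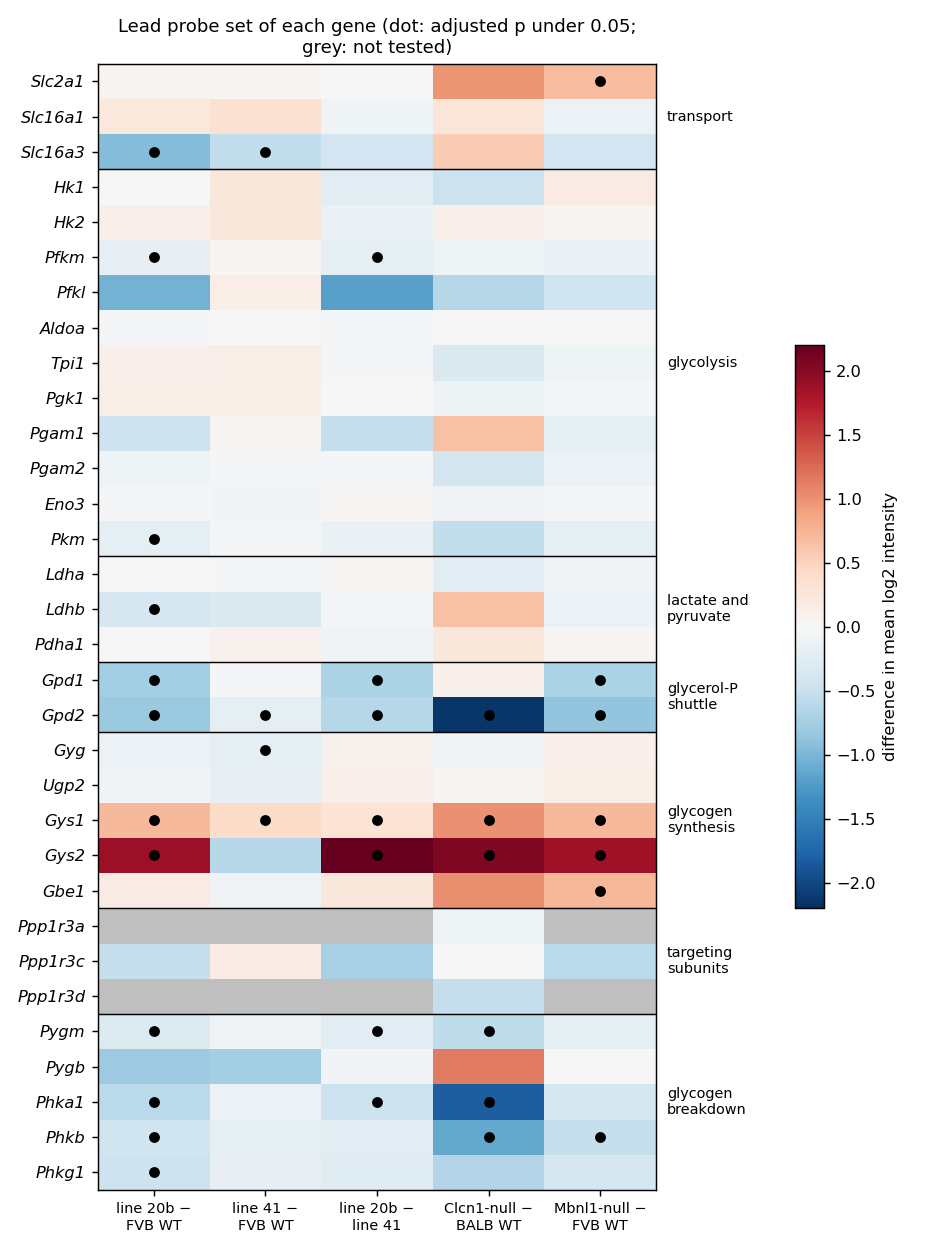
Difference in mean log2 intensity of the lead probe set of each gene (rows, grouped by role) in the 5 comparisons (columns), red for higher and blue for lower in the group named first. Dots mark an adjusted p under 0.05 and grey cells were not tested. Gys1 carries a dot in all 5 columns and Gpd2 in all 5, and the glycolytic enzymes between them carry 3 dots.

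Over the 4 mutant groups set against their wild types, the synthase gene Gys1 was called higher in all 4 and Gys2 in 3, while Gyg was called lower in line 41. The Gys2 call in Mbnl1-null muscle rests on dim wild-type values and on a filter passed mainly through Mbnl1-null arrays. The calls among genes of breakdown, Pygm, Phka1, Phkb and Phkg1, were all lower. Gpd2 of the glycerol phosphate shuttle was called lower in all 4 groups, though its line 41 call was lost without any 1 of 15 of the 18 mice. In none of the groups were 17 of the 32 genes called, among them Ppp1r3a and Ppp1r3d, which were tested in 1 group alone. How many of all genes were called in all 4 groups or in none was not counted. The promoters of Gys1, Phkb and Gpd2, which moved the same way in line 20b and in Mbnl1-null muscle, are shown here with that of Slc16a3, which fell most in line 20b among the genes called lower. Each is the 250 bases before a start listed in a promoter table from RefSeq (GRCm38.p6), on the strand of the gene, and Gpd2 has 2 starts in that table. The listed start is not always where the gene begins: in RefSeq's gene table Slc16a3 begins at 120948484, before its window, and Phkb at 85840853, within its window. Capitals mark ACGTG, the core of the site that hypoxia-inducible factors bind, on either strand, and CANNTG, the E-box that myogenic factors bind, which reads alike on both strands. The hexamer CACGTG would belong to both motifs, and none of the 5 windows holds it. Gpd1 also moved the same way in line 20b and in Mbnl1-null muscle, and so did Gys2, with the limit given above for its Mbnl1-null values.
Gys1, chr7:45434589-45434838, plus strand: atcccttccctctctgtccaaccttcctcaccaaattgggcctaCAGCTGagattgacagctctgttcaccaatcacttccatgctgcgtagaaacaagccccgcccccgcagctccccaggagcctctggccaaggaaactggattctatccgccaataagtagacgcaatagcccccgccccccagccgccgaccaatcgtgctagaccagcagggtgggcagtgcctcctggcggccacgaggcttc
Phkb, chr8:85840738-85840987, plus strand: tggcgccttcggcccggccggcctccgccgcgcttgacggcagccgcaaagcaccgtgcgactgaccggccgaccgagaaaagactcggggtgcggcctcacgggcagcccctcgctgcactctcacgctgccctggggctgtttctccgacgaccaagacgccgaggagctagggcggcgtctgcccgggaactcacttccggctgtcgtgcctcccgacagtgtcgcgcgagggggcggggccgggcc
Gpd2, first start, chr2:57237428-57237677, plus strand: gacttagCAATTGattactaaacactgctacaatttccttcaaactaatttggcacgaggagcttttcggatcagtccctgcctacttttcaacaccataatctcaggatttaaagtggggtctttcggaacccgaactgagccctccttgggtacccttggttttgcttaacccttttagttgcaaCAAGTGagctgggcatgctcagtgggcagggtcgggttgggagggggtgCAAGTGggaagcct
Gpd2, second start, chr2:57238132-57238381, plus strand: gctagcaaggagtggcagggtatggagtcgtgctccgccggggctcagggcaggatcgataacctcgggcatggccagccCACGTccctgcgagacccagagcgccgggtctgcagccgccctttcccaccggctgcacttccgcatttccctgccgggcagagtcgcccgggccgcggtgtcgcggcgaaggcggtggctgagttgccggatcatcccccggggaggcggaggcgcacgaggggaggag
Slc16a3, chr11:120948817-120949066, plus strand: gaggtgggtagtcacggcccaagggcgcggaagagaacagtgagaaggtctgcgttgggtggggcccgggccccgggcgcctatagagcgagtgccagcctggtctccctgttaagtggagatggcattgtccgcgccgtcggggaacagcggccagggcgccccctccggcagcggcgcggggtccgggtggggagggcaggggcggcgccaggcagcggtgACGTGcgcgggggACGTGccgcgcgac
The Slc16a3 window held ACGTG 2 times, the nearer match beginning 14 bases before the listed start, and the second Gpd2 window held it 1 time, on the opposite strand. Among all 32851 windows of this length in the table, 16.6% held ACGTG and 66.2% held CANNTG. The second motif occurred 1 time for Gys1 and 3 times at the first Gpd2 start, and the Phkb window held neither motif. A match is a description of the letters and says nothing of binding.

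Gys1, the glycogen synthase of muscle, was higher in every mutant group. Its lead probe set read 13.09, 13.20 and 13.30 in line 20b (lowest, median and highest of 6 mice), 12.68, 12.86 and 13.10 in line 41, and 12.29, 12.48 and 12.61 in FVB wild-type mice. Every mouse of both lines lay above every wild-type mouse. The difference was 0.72 (SE 0.07, adjusted p = 1.88e-06), or 1.64-fold, in line 20b and 0.41 (SE 0.07, adjusted p = 0.00205), or 1.33-fold, in line 41. Line 20b exceeded line 41 by 0.31 (SE 0.07, adjusted p = 0.0189), a call that was lost without line 41 mouse 1 (adjusted p = 0.0503). Clcn1-null mice read 12.71, 12.90 and 12.89, against 11.90, 11.67 and 11.92 in BALB wild-type mice, a difference of 1.00 (SE 0.13, adjusted p = 0.0145) or 2.00-fold. Mbnl1-null mice read 13.09, 13.31, 13.38, 13.07 and 13.61, against 12.46, 12.57, 12.38, 12.68 and 12.84 in FVB wild-type mice. The groups did not overlap in either experiment, and the Mbnl1-null difference was 0.71 (SE 0.12, adjusted p = 0.0024), or 1.63-fold. A second probe set of Gys1 was called higher in line 20b by 0.74, in line 41 by 0.64 and in Mbnl1-null muscle by 0.90. In experiment 2 that probe set read 8.46, 8.72 and 8.44 in Clcn1-null mice, against 8.50, 8.27 and 7.97 in the BALB wild types, and was not called. Leaving out any 1 mouse kept the call in line 20b, line 41 and Mbnl1-null muscle, while in Clcn1-null muscle it was lost without any of the 3 wild-type mice or Clcn1-null mouse 2 (difference 0.92 to 1.06, adjusted p at most 0.0840).

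Gys2, the synthase known from liver and also found in fat, showed the widest differences among the genes called higher. It read 10.07, 10.89 and 11.25 in line 20b (lowest, median and highest), 7.27, 8.003 and 9.79 in line 41 and 7.23, 8.46 and 11.11 in FVB wild-type mice. Wild-type mice 1 and 2, the pair with high adipocyte markers, held its highest wild-type values, 10.54 and 11.11, and the other 4 read 7.23 to 8.51. Line 20b, whose adipocyte markers were low, was higher than wild type by 1.88 (SE 0.58, adjusted p = 0.0317), or 3.69-fold, with 3 of 6 mice above all wild-type mice. Without wild-type mice 1 and 2 the difference was 2.84 (adjusted p = 0.000317), more than 1.5 times as large. The call was lost without any of wild-type mice 3, 4, 5 and 6 or line 20b mice 1, 3 and 4 (difference 1.55 to 2.32, adjusted p at most 0.0761), and with no filter on dim probe sets (adjusted p = 0.0526). In line 41 the difference was -0.62 (SE 0.58, adjusted p = 0.59) and was not called. Every line 20b mouse lay above every line 41 mouse, with a difference of 2.50 (SE 0.58, adjusted p = 0.0145), or 5.66-fold. In Clcn1-null mice Gys2 read 9.91, 9.56 and 9.66, against 7.23, 8.14 and 7.62 in BALB wild-type mice, higher by 2.05 (SE 0.25, adjusted p = 0.0136), or 4.13-fold. These mice also had high adipocyte markers, and the call was lost without wild-type mouse 1 or 3 or Clcn1-null mouse 1 (adjusted p at most 0.0838). The Mbnl1-null mice read 6.13, 7.32, 5.73, 7.49 and 4.87, against 4.31, 3.95, 4.68, 5.19 and 4.10 in FVB wild-type mice. Mouse 5 fell within the wild-type range, and 4 of the 5 wild-type mice lay under the limit of 5 below which a probe set counts as dim here. The probe set passed the filter, which asked for 5 arrays, through 4 Mbnl1-null arrays and 1 wild-type array, so the size of the difference rests on dim wild-type values. As fitted, it was 1.86 (SE 0.46, adjusted p = 0.0191), lost without wild-type mouse 2 (adjusted p = 0.0514). Adipocyte marker means overlapped in that experiment, 8.74 to 9.48 in Mbnl1-null mice and 9.03 to 9.76 in wild-type mice.

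Gbe1, the branching enzyme, was called higher in Mbnl1-null muscle. It read 10.80, 11.40, 10.98, 11.20 and 10.93 in Mbnl1-null mice, against 10.15, 10.33, 10.44, 10.54 and 10.19 in FVB wild-type mice, higher by 0.73 (SE 0.12, adjusted p = 0.00239), or 1.66-fold, with no overlap. Clcn1-null mice read 14.09, 13.68 and 13.21, against 12.79, 12.56 and 12.55 in BALB wild-type mice, again with no overlap, and the difference of 1.03 (SE 0.23) had an adjusted p of 0.068. In line 20b it was 0.17 (SE 0.14, adjusted p = 0.458). Gyg, glycogenin, was called in line 41, at 13.76, 13.88 and 13.95 (lowest, median and highest) against 14.02, 14.08 and 14.15 in FVB wild-type mice. The fall of 0.22 (SE 0.05, adjusted p = 0.0178) separated all mice and was lost after quantile normalisation (-0.11, adjusted p = 0.23), and its second probe set, at -0.21 (SE 0.09, adjusted p = 0.17), was not called. Ugp2, which makes UDP-glucose, was not called by its lead probe set. One of its 5 probe sets was called higher in Clcn1-null mice, at 13.45, 13.53 and 13.42 against 12.94, 12.73 and 12.81 in BALB wild-type mice, by 0.64 (SE 0.11, adjusted p = 0.031), and that call was lost without any mouse but Clcn1-null mouse 3 (adjusted p at most 0.151).

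**Figure D3:**
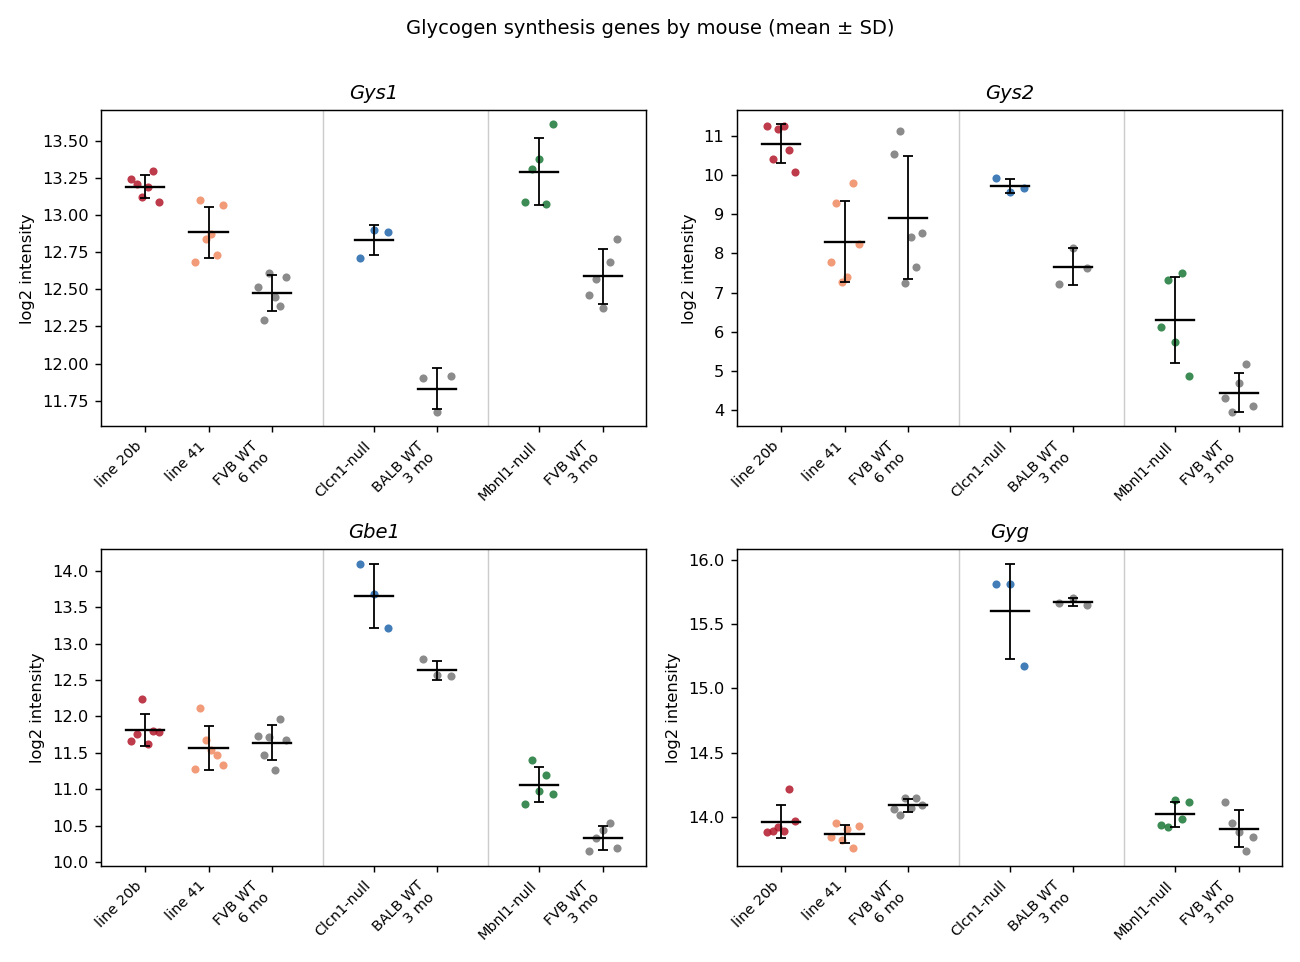
Log2 intensity of the lead probe sets of Gys1, Gys2, Gbe1 and Gyg in every mouse, by group, with the 3 experiments separated by grey lines. Points are mice and bars are group means ± SD. All 4 mutant groups lie above their wild types for Gys1, and line 41 and the FVB wild-type mice of experiment 1 spread widely for Gys2.

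Among genes of glycogen breakdown, 4 of 5 were called lower by their lead probe sets in line 20b, 0 of 5 in line 41, 3 of 5 in Clcn1-null and 1 of 5 in Mbnl1-null muscle, where 10.1%, 5.16%, 2.91% and 8.11% of all genes were called lower, and 0 of the 5 were called higher. Most of these calls lie in line 20b and Clcn1-null muscle. Of 12 fast fibre markers, 3 were called lower, 1 higher and 8 not called in line 20b, and 2 lower, 1 higher and 9 not called in Clcn1-null muscle. The part of fast fibres in these results was not tested. Phka1 encodes the muscle alpha subunit of phosphorylase kinase, a regulatory subunit. It read 13.09, 13.23 and 13.39 in line 20b (lowest, median and highest), 13.61, 13.71 and 13.85 in line 41 and 13.66, 13.83 and 14.09 in FVB wild-type mice. Line 20b lay wholly below both other groups, lower than wild type by 0.60 on the log2 scale (difference -0.60, SE 0.07, adjusted p = 5.64e-06), or 0.66-fold, and lower than line 41 (difference -0.48, SE 0.07, adjusted p = 0.000486). In line 41 the lead was not called (-0.12, SE 0.07, adjusted p = 0.324), but another of its 3 probe sets was, at 12.77, 12.93 and 13.22 in line 41 against 13.14, 13.27 and 13.43 in FVB wild-type mice (-0.33, SE 0.08, adjusted p = 0.0139), and leaving out any 1 mouse kept that call. In Clcn1-null mice Phka1 read 11.94, 12.004 and 11.52, against 13.72, 13.55 and 13.63 in BALB wild-type mice. This difference of -1.81 (SE 0.16, adjusted p = 0.00608), or 0.285-fold, was shared by its other probe sets, at -1.86 and -1.20. The call was lost without wild-type mouse 1 or 3 (difference -1.90 to -1.66, adjusted p at most 0.0527). In Mbnl1-null mice it read 13.56, 12.83, 13.08, 13.36 and 13.19, against 13.47, 13.68, 13.48, 13.61 and 13.69 in FVB wild-type mice. All but mouse 1 lay below the wild-type range, and the difference of -0.38 (SE 0.12) had an adjusted p of 0.0504. One of its other probe sets was called lower there, by -0.43 (SE 0.13, adjusted p = 0.041), lost without any of the 5 wild-type mice or Mbnl1-null mice 2, 3 and 5 (adjusted p at most 0.0945).

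Phkb, the beta subunit of the same kinase, was called lower in 3 groups. It read 13.41, 13.51 and 13.68 in line 20b (lowest, median and highest), 13.54, 13.77 and 13.96 in line 41 and 13.73, 13.97 and 14.12 in FVB wild-type mice. Line 20b did not overlap with wild type, at -0.43 (SE 0.08, adjusted p = 0.000486), while line 41 did. Clcn1-null mice read 13.92, 13.53 and 13.85, against 14.89, 15.00 and 14.78 in BALB wild-type mice, a difference of -1.12 (SE 0.14, adjusted p = 0.0132), or 0.46-fold. The call was lost without any of the 3 wild-type mice (difference -1.20 to -1.0, adjusted p at most 0.0838). In Mbnl1-null mice it read 13.76, 13.41, 13.60, 13.73 and 13.50, against 14.11, 14.17, 14.19, 14.10 and 13.98 in FVB wild-type mice, a difference of -0.51 (SE 0.07, adjusted p = 0.00122). The groups of both null models were fully separated from their wild types.

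Phkg1, the catalytic subunit of the kinase in muscle, read 13.89, 14.21 and 14.37 in line 20b (lowest, median and highest) against 14.44, 14.63 and 14.86 in FVB wild-type mice, with no overlap and a difference of -0.45 (SE 0.09, adjusted p = 0.00187). Its differences were -0.65 (SE 0.23, adjusted p = 0.206) in Clcn1-null and -0.36 (SE 0.12, adjusted p = 0.0619) in Mbnl1-null muscle, with 3 of 3 and 4 of 5 mice below all wild-type mice. Pygm, the muscle phosphorylase, read 14.92, 15.04 and 15.18 in line 20b, 15.25, 15.27 and 15.37 in line 41 and 15.31, 15.36 and 15.44 in FVB wild-type mice. Line 20b lay below both, by -0.30 (SE 0.04, adjusted p = 6.61e-05) against wild type and -0.22 (SE 0.04, adjusted p = 0.00443) against line 41. In Clcn1-null mice it read 15.30, 15.14 and 15.49, against 15.94, 15.85 and 15.81 in BALB wild-type mice, a difference of -0.56 (SE 0.11, adjusted p = 0.0483). That call was lost without any mouse but Clcn1-null mouse 3 (difference -0.65 to -0.48, adjusted p at most 0.206) and after a shift of the arrays to a common median (adjusted p = 0.0851). Pygb, the brain-type phosphorylase, was not called in any comparison. Its highest values in experiment 1 were 10.96 and 11.34 in wild-type mice 1 and 2, against 9.64 to 9.92 in the other 4, and its differences were -0.80 (SE 0.28, adjusted p = 0.0527) in line 20b and 1.14 (SE 0.42, adjusted p = 0.214) in Clcn1-null muscle.

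**Figure D4:**
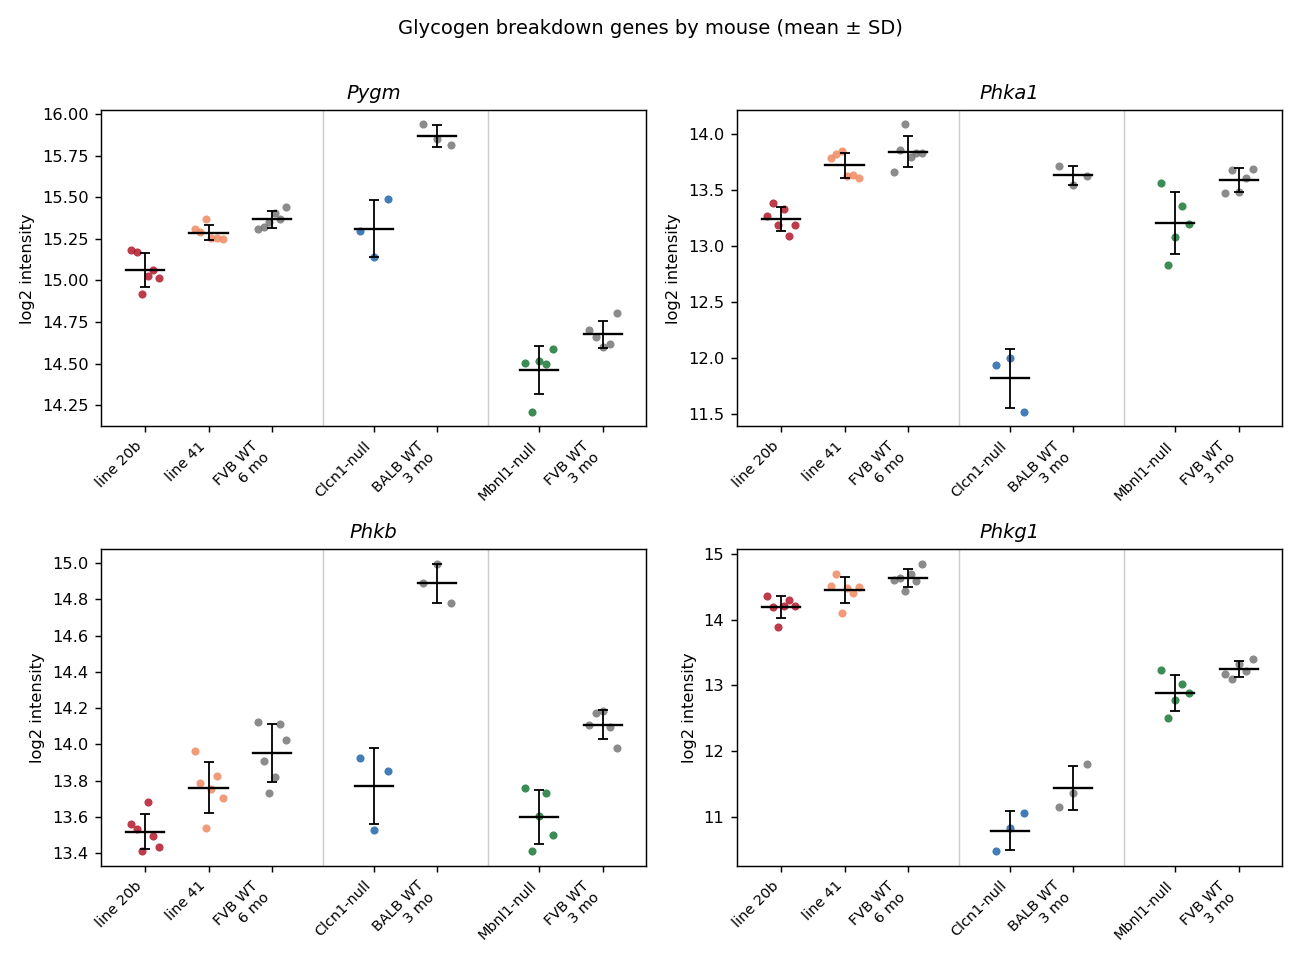
Log2 intensity of the lead probe sets of Pygm, Phka1, Phkb and Phkg1 in every mouse, by group, with the 3 experiments separated by grey lines. Points are mice and bars are group means ± SD. Line 20b lies below the FVB wild-type mice for all 4 genes, and Clcn1-null mice lie furthest below their wild type for Phka1.

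Gpd2, the mitochondrial dehydrogenase of the glycerol phosphate shuttle, fell in all 4 mutant groups, and its fall in Clcn1-null muscle was the largest among the lead probe sets of the 32 genes in any comparison. It read 13.39, 13.45 and 13.54 in line 20b (lowest, median and highest), 13.95, 14.12 and 14.22 in line 41 and 14.14, 14.26 and 14.47 in FVB wild-type mice. Line 20b lay wholly below both, at -0.82 (SE 0.06, adjusted p = 4.04e-08), or 0.566-fold, against wild type and -0.63 (SE 0.06, adjusted p = 1.52e-05) against line 41. Line 41 overlapped with wild type, and its difference of -0.19 (SE 0.06, adjusted p = 0.048) kept its call without FVB wild-type mouse 3 or 4 or line 41 mouse 5 and lost it without any of the other 15 mice (difference -0.22 to -0.16, adjusted p at most 0.108) and after quantile normalisation (-0.09, adjusted p = 0.379). The Clcn1-null mice read 10.36, 10.59 and 10.53, against 12.59, 12.69 and 12.63 in BALB wild-type mice, a difference of -2.14 (SE 0.14, adjusted p = 0.00496), or 0.226-fold. Fast fibre marker means were also lower in these mice, with 2 of 12 markers called lower, 1 higher and 9 not called. The part of fast fibres in this result was not tested. The Gpd2 call in Clcn1-null muscle was lost without wild-type mouse 1 or 3 (difference -2.19 to -2.08, adjusted p at most 0.0504). In Mbnl1-null mice Gpd2 read 10.70, 10.48, 10.93, 10.96 and 10.75, against 11.82, 11.60, 11.49, 11.35 and 11.88 in FVB wild-type mice, a difference of -0.86 (SE 0.12, adjusted p = 0.001), or 0.55-fold, with no overlap. Its second probe set was called lower in line 20b (-0.57), Clcn1-null (-1.15) and Mbnl1-null muscle (-0.97), and its other 2 probe sets were called in none of the comparisons that tested them.

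Gpd1, the cytosolic partner, was called lower in line 20b and Mbnl1-null muscle. It read 11.51, 11.87 and 12.01 in line 20b (lowest, median and highest), 12.19, 12.45 and 13.05 in line 41 and 12.24, 12.52 and 13.08 in FVB wild-type mice. Line 20b was separated from both, at -0.75 (SE 0.15, adjusted p = 0.0015) against wild type and -0.70 (SE 0.15, adjusted p = 0.00833) against line 41. Wild-type mice 1 and 2 held 2 high values, 12.76 and 13.08, and without them the difference was -0.57 (adjusted p = 0.0115). Its second probe set was called lower there too, by -0.65 (SE 0.18, adjusted p = 0.0202), a call lost without both of those mice (-0.55, adjusted p = 0.0833), without mouse 2 alone and without line 20b mouse 6 (adjusted p at most 0.0503). In Mbnl1-null mice it read 12.05, 11.49, 11.90, 12.14 and 11.81, against 12.25, 12.62, 12.59, 12.77 and 12.68 in FVB wild-type mice, a difference of -0.70 (SE 0.13, adjusted p = 0.0041) with no overlap. By the lead probe set the Clcn1-null mice read 14.03, 13.27 and 14.48, against 13.88, 13.89 and 13.68 in BALB wild-type mice, which overlap, and it was not called (0.11). The second probe set lay the other way there, at 9.54, 9.85 and 9.88 against 10.24, 10.39 and 10.07, with no overlap, and was not called. In Mbnl1-null muscle the second probe set was called lower, and leaving out any 1 mouse kept that call (difference -0.86 to -0.67).

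Slc16a3, the lactate exporter MCT4, was called lower in both repeat lines. It read 12.43, 12.63 and 12.99 in line 20b (lowest, median and highest), 12.78, 13.07 and 13.43 in line 41 and 13.07, 13.54 and 14.01 in FVB wild-type mice. Line 20b lay wholly below wild type, at -0.96 (SE 0.15, adjusted p = 0.00012) or 0.514-fold. Line 41 overlapped with it, at -0.54 (SE 0.15, adjusted p = 0.0269), a call lost without wild-type mouse 3 or 6 or line 41 mouse 4 or 6 (difference -0.65 to -0.46, adjusted p at most 0.0619). The lines themselves differed by -0.42 (SE 0.15), which was not called (adjusted p = 0.106). Mbnl1-null mice read 9.53, 10.33, 9.85, 10.39 and 10.70, against 9.70, 11.03, 10.17, 11.29 and 10.76 in FVB wild-type mice, and the groups overlapped (-0.43, adjusted p = 0.379). Its Clcn1-null difference was 0.56 (SE 0.32, adjusted p = 0.41). Slc16a1, a lactate transporter used for uptake in oxidative fibres, was called in none, with differences from -0.12 in Mbnl1-null to 0.34 in line 41 muscle.

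Slc2a1, the basal glucose transporter GLUT1, was called higher in Mbnl1-null muscle. It read 10.02, 10.11, 10.30, 10.03 and 10.19 in Mbnl1-null mice, against 9.86, 9.14, 9.61, 9.20 and 9.45 in FVB wild-type mice, higher by 0.68 (SE 0.14, adjusted p = 0.00632), or 1.60-fold, with no overlap. In Clcn1-null mice it read 13.71, 13.33 and 13.12, against 12.29, 12.75 and 12.21 in BALB wild-type mice, which do not overlap, and the difference of 0.97 (SE 0.21) had an adjusted p of 0.065. Another of its 3 probe sets was called higher there, at 10.45, 10.42 and 10.65 against 9.43, 9.58 and 8.82 in BALB wild-type mice, by 1.23 (SE 0.22, adjusted p = 0.0376), lost without any 1 of the 6 mice (adjusted p at most 0.14). GLUT1 is also known from endothelial cells and nerve sheaths. Endothelial marker means were 7.59 to 8.31 in Mbnl1-null mice and 7.77 to 8.002 in FVB wild-type mice, with 0 of 6 markers called. Of 3 nerve markers, 0 were called in Mbnl1-null muscle. In Clcn1-null muscle 1 of 3 nerve markers was called higher and 0 of 6 endothelial markers were called. The part of these cells in the Slc2a1 differences was not tested. In both repeat lines the lead probe set of Slc2a1 differed from wild type by less than 0.1 on the log2 scale and was not called.

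**Figure D5:**
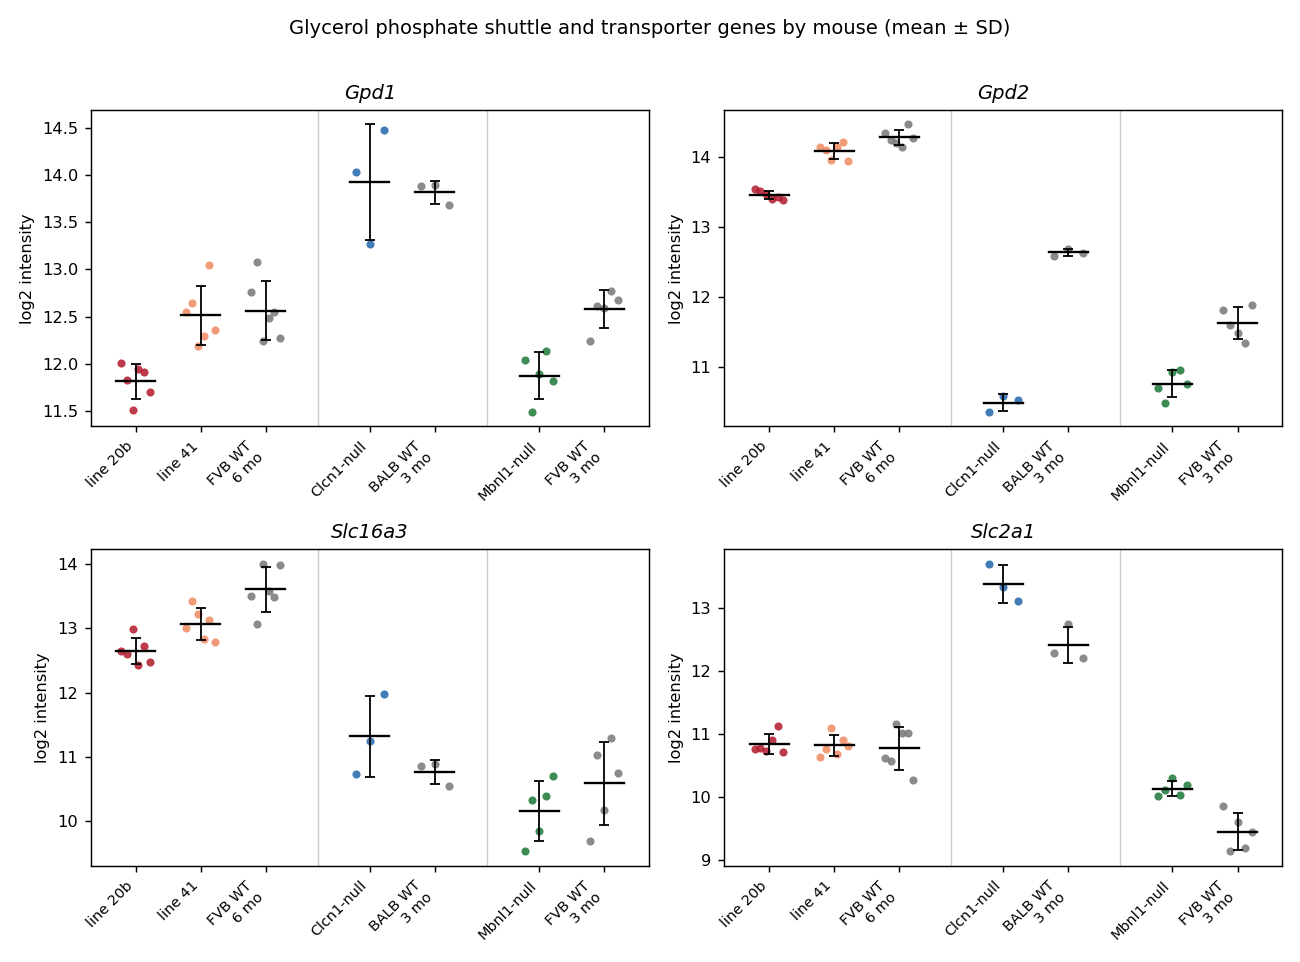
Log2 intensity of the lead probe sets of Gpd1, Gpd2, Slc16a3 and Slc2a1 in every mouse, by group, with the 3 experiments separated by grey lines. Points are mice and bars are group means ± SD. Gpd2 is lower than its wild type in line 20b and both null groups with no overlap, and Slc16a3 is lower than wild type in line 20b.

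Ldhb, the lactate dehydrogenase of oxidative fibres, was called lower in line 20b, and 3 of its 4 probe sets were called higher in Clcn1-null muscle. In line 20b the lead read 13.98, 14.38 and 14.45 (lowest, median and highest), against 14.25, 14.81 and 14.84 in FVB wild-type mice, which overlap (-0.36, SE 0.12, adjusted p = 0.04). All 4 probe sets were called lower there, by -0.46 to -0.36. Wild-type mice 1 and 2, the pair with low slow fibre markers, held the 2 lowest wild-type values, 14.47 and 14.25, and without them the lead difference was -0.52 (adjusted p = 0.00327). The lead call was lost without any of wild-type mice 3, 4, 5 and 6 or line 20b mice 1, 3 and 5 (difference -0.44 to -0.29) and after a shift to a common median (-0.29, adjusted p = 0.117). In Clcn1-null mice the lead read 15.56, 15.27 and 14.88, against 14.58, 14.45 and 14.73 in BALB wild-type mice, which was not called (0.65, SE 0.19, adjusted p = 0.126). The other 3 were higher there by 1.02, 0.89 and 1.03, each with no overlap. Of 9 slow fibre markers, 6 were called lower and 2 higher in the same mice. All 3 calls were lost without any of the 3 wild-type mice or Clcn1-null mouse 2, and 2 of them also without Clcn1-null mouse 1 (adjusted p at most 0.118). In Mbnl1-null muscle Ldhb was not called (-0.13), and mice 1 and 4, lowest for slow fibre markers, had its lowest values, 12.64 and 12.80. Ldha, the dehydrogenase of fast fibres, and Pdha1, of the pyruvate dehydrogenase complex, were called in none by their lead probe sets, with differences from -0.24 to 0.25 over the 4 mutant groups. A second probe set of Pdha1 was called higher in line 41 (0.20, SE 0.05, adjusted p = 0.0298), lost without any of wild-type mice 1, 2, 4 and 5 or line 41 mice 2, 5 and 6 (adjusted p at most 0.067).

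Of the 11 glycolytic enzymes tested, 2 were called in line 20b and 0 in each of the other 3 mutant groups by their lead probe sets, a share of calls in line 20b near the 18.8% of all genes. Their differences from wild type ran from -1.05 to 0.13 in line 20b with a median of -0.05, from -0.06 to 0.26 in line 41 with a median of 0.06, from -0.62 to 0.65 in Clcn1-null with a median of -0.12 and from -0.43 to 0.18 in Mbnl1-null muscle with a median of -0.09. The genes called were Pfkm, the muscle phosphofructokinase that gates the pathway, and Pkm, the pyruvate kinase of muscle, both lower in line 20b. Pfkm read 14.86, 15.08 and 15.19 in line 20b (lowest, median and highest), 15.15, 15.30 and 15.36 in line 41 and 15.17, 15.24 and 15.29 in FVB wild-type mice. With 5 of 6 line 20b mice below all wild-type mice it differed by -0.18 (SE 0.05, adjusted p = 0.0168), and by -0.22 (SE 0.05, adjusted p = 0.0117) from line 41. The call against wild type was lost after quantile normalisation (-0.11, adjusted p = 0.23) and after a shift to a common median (-0.11, adjusted p = 0.204), and so was that against line 41 (adjusted p = 0.0643 and 0.0706). Pkm read 14.41, 14.55 and 14.73 in line 20b against 14.66, 14.72 and 14.91 in FVB wild-type mice, a difference of -0.19 (SE 0.05, adjusted p = 0.0181) that was lost after the median shift (-0.12, adjusted p = 0.206). Clcn1-null mice had Pkm values of 13.78, 13.98 and 14.06, against 14.57, 14.44 and 14.45 in BALB wild-type mice, separated but not called (-0.55, SE 0.11, adjusted p = 0.0535). The lowest difference, that of the liver-type phosphofructokinase Pfkl in line 20b, had an SE of 0.44 and an adjusted p of 0.119. Tpi1, triose phosphate isomerase, was not called by its lead, but 1 of its 3 probe sets was called higher in line 41, at 14.82, 14.97 and 15.04 against 14.58, 14.73 and 14.80 in FVB wild-type mice, with no overlap (0.23, SE 0.05, adjusted p = 0.0063), and leaving out any 1 mouse kept that call. Hk1, a hexokinase, was not called by its lead, but its second probe set was lower in line 20b, at 6.78, 7.74 and 8.53, than in line 41, at 8.07, 8.58 and 9.07, by -0.89 (SE 0.24, adjusted p = 0.0362). That call was lost without line 20b mouse 1, 2 or 4 or line 41 mouse 1, 2, 3 or 6 (adjusted p at most 0.091).

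Of the subunits that bring protein phosphatase 1 to glycogen, Ppp1r3a and Ppp1r3d were under the dim limit of 5 in all mice of experiments 1 and 3 and were tested in experiment 2 alone. There they differed by -0.10 and -0.53 (SE 0.58), and neither was called. Ppp1r3c read 12.01, 12.33 and 13.59 in line 20b (lowest, median and highest), 12.66, 13.21 and 13.63 in line 41 and 12.15, 13.03 and 14.005 in FVB wild-type mice, a wide spread, and was called in no comparison. Its difference in Mbnl1-null muscle was -0.59 (SE 0.25, adjusted p = 0.131).

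Other genes of the same pathways, 41 of a list of 46 with a probe set, were called in 10 of 37 tested in line 20b (3 higher and 7 lower), 6 of 37 in line 41 (2 and 4), 4 of 38 in Clcn1-null (1 and 3) and 9 of 31 in Mbnl1-null muscle (4 and 5), where 18.8%, 8.9%, 4.94% and 16.1% of all genes were called. In line 20b the largest differences were those of Pfkfb3, which makes the activator of phosphofructokinase (-2.85, SE 0.28), Fbp2, the muscle fructose bisphosphatase (1.99, SE 0.28), Slc2a3, the glucose transporter GLUT3 (-1.67, SE 0.29), and Pdp1, a pyruvate dehydrogenase phosphatase (-0.79, SE 0.17). In Mbnl1-null muscle they were Pfkfb3 (-1.57, SE 0.33), Fbp2 (1.29, SE 0.28), Phkg2, the liver-type catalytic subunit of phosphorylase kinase (0.72, SE 0.13), and Prkag3, a subunit of the energy sensor AMPK in fast muscle (-0.66, SE 0.19). In Clcn1-null muscle they were Prkag3 (-4.18, SE 0.33), Pygl, the liver phosphorylase (2.11, SE 0.35), Stbd1, which binds glycogen (-1.35, SE 0.23), and Pgm1, a phosphoglucomutase (-1.20, SE 0.19). In line 41 they were Pfkfb3 (-1.04, SE 0.28), Fbp2 (0.94, SE 0.28), Pdp1 (-0.77, SE 0.17) and Prkaa2, the muscle catalytic subunit of AMPK (-0.29, SE 0.07). Between line 20b and line 41 they were Pfkfb3 (-1.81, SE 0.28), Slc2a3 (-1.26, SE 0.29), Fbp2 (1.05, SE 0.28) and Pgm1 (-0.30, SE 0.06), which were all 4 called.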

How the data were processed

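Quadriceps RNA of 34 mice was hybridised as biotin-labelled cRNA to Affymetrix 430A and 430B arrays (experiments 1 and 2) or 430 2.0 arrays (experiment 3). The deposited values are linear intensities that the authors made with GCRMA, per the submitters' processing notes. Its version and settings are not given in the sources used here. GCRMA sets dim probe sets near a floor, so small differences among them are compressed.

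Intensities were taken as log2. Each experiment and array type was fitted apart with limma 3.58.1 in R 4.3.3 (lmFit, eBayes with a trend), after a filter that kept probe sets at log2 5 (intensity 32) or more on a number of arrays equal to the smallest group's size. P-values are two-sided and adjusted by Benjamini-Hochberg over all probe sets of an experiment. The code was tested on simulated data. A probe set belonged to a gene where its annotation named 1 symbol (34945 of 45037, with several symbols in 932 and none in 9160). Annotations came from GEO's platform table and can be old. The number of arrays limits the precision. Levels are not compared between genes or between experiments, which were normalised separately.

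Genes were described mouse by mouse where the lead probe set was called, or another was called with a change of 0.5 or more. Of the other pathway genes, up to 4 called with the largest change per comparison are named. The gene set, the pathway and marker lists and the tests were chosen with earlier results of these data known. Promoters are RefSeq sequences of GRCm38.p6, found for 4 of the 6 genes sought. Alternatives were quantile normalisation, a shift to a common median, other filters, 1 probe set per gene, other eBayes settings, array weights, a replicate block, a threshold of 0.01, fits on 2 groups alone, and leaving out mice. Same-numbered mice of compared groups did not deviate together in every pair: correlations of their deviations from the group means ran from -0.15 to 0.40.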

Additional observations from a re-analysis of the deposited data

Results flagged for a closer look

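Among 150 tests of a group's highest or lowest mouse, 11 found a mouse far from its group, where chance alone marks about 1 in 20 groups. Line 20b mouse 3 was such a mouse for 3 genes: Gbe1 at 12.24 (nearest mouse 11.80), Phkg1 at 13.89 (nearest 14.20) and Ppp1r3c at 13.59 (nearest 12.40). Line 20b mouse 5 was high for Gyg at 14.22 (nearest 13.97). In line 41, mouse 6 was high for Aldoa at 16.98 (nearest 16.94) and mouse 3 for Ugp2 at 14.30 (nearest 14.16). Line 41 mice 1, 3, 4 and 5 held the same Aldoa value, 16.9442, so the small gap of mouse 6 is set against a tie. In Mbnl1-null mice, mouse 2 was low for Pkm at 14.43 (nearest 14.67) and for Pygm at 14.21 (nearest 14.50), and mouse 5 for Hk1 at 6.93 (nearest 7.61). Among the FVB wild-type mice of experiment 1, mouse 3 was high for Pgk1 at 14.21 (nearest 13.96) and mouse 6 low for Pgam1 at 11.92 (nearest 12.48).

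Line 20b and line 41 carry the same kind of transgene. Between them 7 of the 30 genes tested differed by limma's test with adjusted p under 0.05, where 5.75% of all genes did. Gys1 was higher in line 20b by 0.31 and Gys2 by 2.50. Pfkm differed by -0.22, Pygm by -0.22, Phka1 by -0.48, Gpd2 by -0.63 and Gpd1 by -0.70, all lower in line 20b. The Gys1 call was lost without line 41 mouse 1. The Pfkm call was lost after quantile normalisation and after a shift to a common median.

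For 5 genes every mouse of one model lay on one side of its wild-type mean and every mouse of another on the opposite side. The difference between the models was not tested, and how many of all genes met this condition was not counted. With 3 Clcn1-null mice the condition is easily met, and Ldhb, Pygb, Pgam1 and Tpi1 were not called there by their lead probe sets. Ldhb differed from wild type by -0.36 in line 20b and -0.32 in line 41, and by 0.65 in Clcn1-null muscle. For Pygb the values were -0.80, -0.75 and 1.14. Its wild-type mean in experiment 1 was raised by wild-type mice 1 and 2, at 10.96 and 11.34. The rest of those wild-type mice read 9.64 to 9.92, and line 20b and line 41 reached up to 9.69 and 9.98. Pgam1 differed by -0.45 in line 20b and 0.65 in Clcn1-null muscle. Tpi1 differed by 0.13 in line 41, against -0.33 for Clcn1-null mice and -0.087 for Mbnl1-null mice. Gyg differed by -0.22 in line 41 and 0.11 in Mbnl1-null muscle.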

How the results depend on the processing

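No called difference of a probe set of these genes changed sign under the alternatives run. Over all alternatives that left out no single mouse, 626 of 716 values of called probe sets kept their side of the threshold and 90 did not. Counts of genes stayed within 1.5 times in 45 of 54 cases. For line 41, 2 of the 4 genes were called after quantile normalisation, 2 with line 41 and its wild type fitted alone and 1 at an adjusted p under 0.01. Of all genes, 9.46%, 5.84% and 3.7% were called in these settings. At the threshold of 0.01, 4 genes were called between line 20b and line 41 and 2 in Clcn1-null muscle, where 2.07% and 0.868% of all genes were called. Array weights gave 11 of 32 genes in Clcn1-null muscle (6 higher and 5 lower), where 29.6% of all genes were then called, against 4.94% as reported. They gave 11 of 30 in Mbnl1-null muscle (4 and 7), where 22.5% of all genes were called, against 16.1%. With the mouse number as a replicate block the counts were 13 in line 20b, 4 in line 41, 9 between the lines, 2 in Clcn1-null (0 higher and 2 lower) and 11 in Mbnl1-null muscle (4 and 7). The shares of all genes called were then 18.7%, 8.99%, 5.97%, 1.22% and 20.4%. Quantile normalisation gave 4 higher and 4 lower in Clcn1-null and 4 and 6 in Mbnl1-null muscle, and a shift to a common median 4 and 3 in each, against 2 and 4 and 4 and 3 as reported. Of all genes, 5.53% and 19.7% were called after quantile normalisation and 6.24% and 18.7% after the shift. Same-numbered mice correlated in deviation at -0.15 to 0.40. Of these mice, 2 of 6, 1 of 6, 3 of 6, 1 of 3 and 2 of 5 correlated best with their own number. Whether a shared number marks any pairing of mice was not tested. Leaving out 1 mouse at a time gave 10 to 13 genes in line 20b, 2 to 4 in line 41, 6 to 11 between the lines, 0 to 10 in Clcn1-null and 6 to 9 in Mbnl1-null muscle. In the same order, the share of all genes called ran from 16.2% to 19.5%, 6.48% to 9.1%, 3.86% to 7.02%, 0.24% to 10.3% and 11.4% to 17.3%. The causes of these moves were not tested. Of all genes called in line 20b, 46.2% were higher, against 56.5% after quantile normalisation and 58.8% after a shift to a common median, and between the lines 60.1% were higher, against 73.7% after that shift.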
